A study of Equus caballus with 8 samples.

Results

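Transcripts of 10 genes of the matrix metalloprotease system were followed in the endometrium of mares: the matrix metalloproteases MMP2, MMP7, MMP11, MMP14 and MMP19, the ADAMTS proteases ADAMTS1 and ADAMTS5, and the inhibitors TIMP1, TIMP2 and TIMP3. They were taken by symbol from a table of 24942 Gene IDs, and each of the 10 symbols matched 1 Gene ID. The biopsies came from 4 healthy, normally cycling Bavarian Warmblood mares, and 1 biopsy per mare was taken on Day 12 when pregnant and 1 on Day 12 of a cycle without pregnancy, in random order. The 4 pregnant and 4 cyclic libraries thus form 4 pairs. Ovulation was induced in the mares with 1500 IU of human chorionic gonadotropin and they were inseminated with semen of 1 stallion. The labels do not say separately whether this was done in the control cycle. Pregnancy was established by ultrasound, and the uterus was flushed before the biopsy. Whole biopsies were sequenced as poly(A) RNA, so epithelium, stroma, vessels and leukocytes are mixed in each library.

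Matrix metalloproteases are zinc-dependent endopeptidases that cut collagens, laminins, proteoglycans and other proteins of the extracellular matrix. They are made as inactive precursors whose propeptide must be removed, and tissue inhibitors of metalloproteases (TIMPs) bind and block the active site. ADAMTS proteases are secreted relatives that carry thrombospondin repeats and cut proteoglycans such as versican and aggrecan. In the uterus these enzymes and inhibitors are known for the breakdown and rebuilding of endometrial stroma over the cycle and at implantation. Messenger RNA says nothing about how much of an enzyme was active, which was not measured here.

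Library totals were 15.5 to 16.7 M counts in 7 libraries and 9.81 M in the shallowest, the pregnant library of mare 1. Levels are given as CPM, counts relative to library size, scaled between libraries with edgeR's TMM factors. Pregnancy was compared with the cycle by edgeR's quasi-likelihood test with the mare as a block, over 15342 genes that passed a filter on low counts. A gene is said to have risen or fallen where the Benjamini-Hochberg adjusted p over all these genes was below 0.05. Fold changes are log2 values of pregnant over cyclic, with standard errors. No transcript lengths were used, so levels of different genes are not ranked against each other.

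Of the 10 genes, 9 passed the filter. TIMP1, TIMP2 and TIMP3 rose in pregnancy, and 0 of the 9 fell (0 at an unadjusted p under 0.05, and 0 in DESeq2 or limma-voom). Among all 15342 genes tested, 8.53% rose and 8.19% fell (1309 and 1256 genes, or 1416 and 864 with library totals in place of TMM). The median log2 fold change of the 9 genes was 0.35, against 0.00 over all genes tested. Higher in 4 of 4 mares were 5 of the 9 genes, the 3 TIMPs with MMP2 and MMP11, against 19.2% of all genes tested. The genes and the lists below were chosen with earlier results of these data known. Shares set against all genes, here and below, are therefore descriptions and not tests. MMP2 had a fitted change of 1.86-fold with a wide spread between mares and missed the threshold. MMP14, MMP11, MMP19, ADAMTS1 and ADAMTS5 also did not pass it. Leaving out mare 1 or mare 4, or leaving the mare out of the model, left 1 of the 9 genes called, TIMP1. Without mare 3, 2 were called, TIMP1 and MMP2. DESeq2, limma-voom and scaling by library totals each called 4, adding MMP2.

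**Figure D1:**
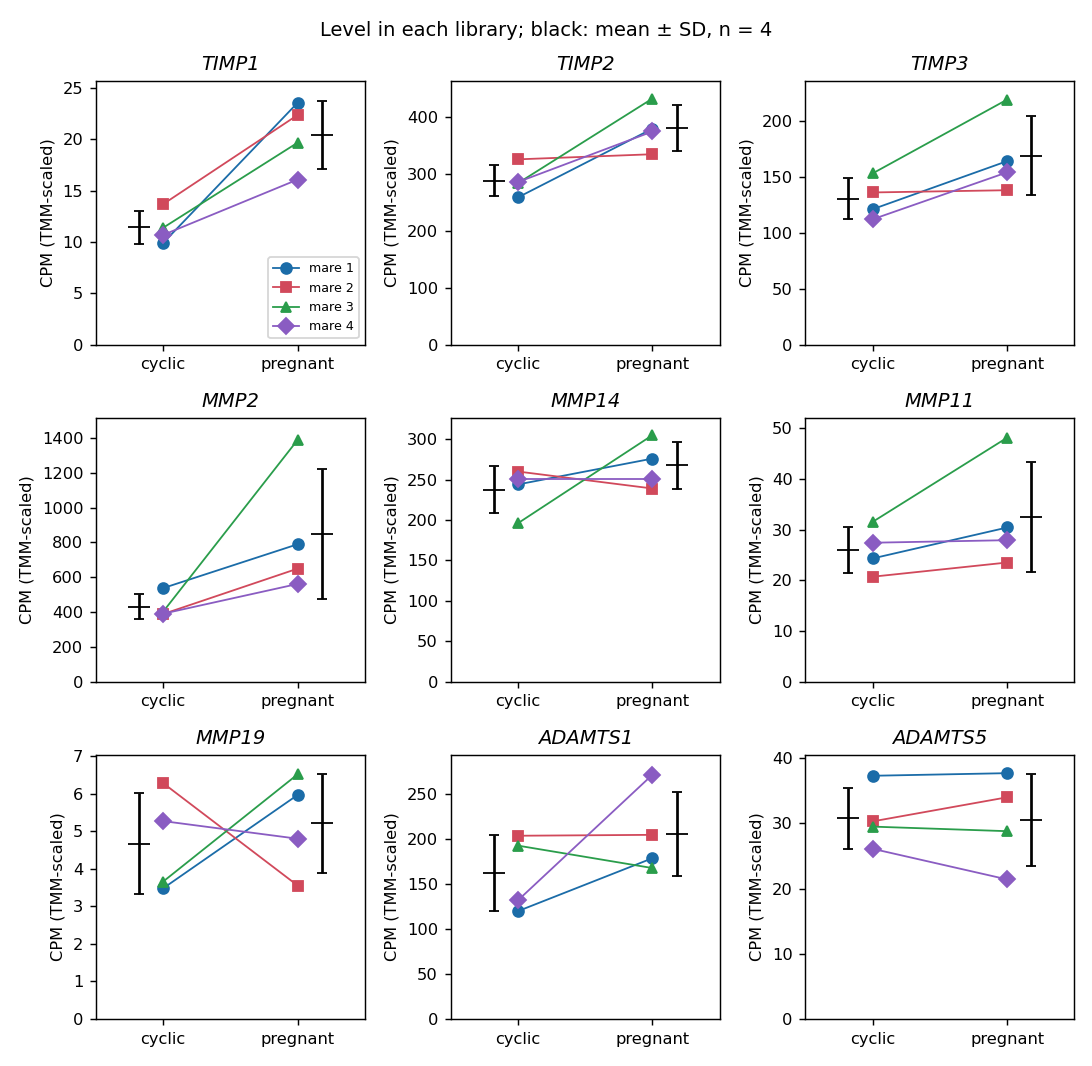
Level of 9 genes in each library, as TMM-scaled CPM on a linear axis that starts at 0, with the 2 biopsies of a mare joined by a line; black bars are mean ± SD over 4 mares. TIMP1, TIMP2 and MMP2 show no overlap between the cyclic and the pregnant libraries, while the lines of MMP19 cross. Those of ADAMTS5 do not cross and go up, go down or stay level, depending on the mare.

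Of the inhibitors, TIMP1 showed the clearest difference. TIMP1 (Gene ID 100034220) is a soluble inhibitor of most secreted matrix metalloproteases and a weak inhibitor of MMP14. Its level was 9.92, 13.7, 11.4 and 10.7 CPM in the cyclic libraries of mares 1 to 4. In their pregnant libraries it was 23.6, 22.4, 19.7 and 16.1 CPM. The lowest pregnant library was above the highest cyclic one. The group means were 11.4 ± 1.64 and 20.4 ± 3.32 CPM (SD, n = 4), and the log2 fold change was 0.83 ± 0.12 (SE; adjusted p = 0.00229). TIMP1 passed in 12 of 12 alternative analyses. The ratio within mares ran from 1.51 in mare 4 to 2.38 in mare 1, and 82.3% of the sum of squares of its log2 CPM belonged to the state. In the RefSeq annotation of a telomere-to-telomere horse assembly the span of TIMP1 overlaps that of SYN1, which had 25 to 60 counts per library and a log2 fold change of 0.22 (adjusted p = 0.522). The library kit as described does not mark the strand, so reads in overlapping exons cannot be told apart.

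TIMP2 (100034134) blocks active metalloproteases, and it also bridges MMP14 and the MMP2 precursor at the cell surface, which leads to activation of MMP2. It had 259, 326, 284 and 286 CPM in the cyclic libraries of mares 1 to 4. The pregnant libraries had 380, 335, 433 and 375 CPM. The groups did not overlap, but mare 2 hardly differed, with a ratio of 1.03 against 1.31 to 1.52 in the other mares. The log2 fold change was 0.40 ± 0.10 (adjusted p = 0.0276). This call was lost without mare 1 (adjusted p = 0.141), without mare 3 (0.109), without mare 4 (0.0721) and without the mare block (0.0868). The span of TIMP2 overlaps CEP295NL, which had 14 to 42 counts per library against 3818 to 7705 for TIMP2.

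TIMP3 (100033947) is held in the matrix and also inhibits several ADAM and ADAMTS proteases. Its levels were 121, 136, 153 and 112 CPM in the cycle against 164, 138, 219 and 154 CPM in pregnancy, for mares 1 to 4. The groups overlapped, since the pregnant library of mare 2 lay below the cyclic library of mare 3. The log2 fold change was 0.36 ± 0.09 (adjusted p = 0.0238). As with TIMP2, mare 2 showed almost no difference, with a ratio of 1.02 against 1.36 to 1.43. The call was lost without mare 1 (adjusted p = 0.117), mare 3 (0.0919) or mare 4 (0.0802) and without the mare block (0.233). SYN3, whose span overlaps TIMP3, had at most 3 counts in a library.

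MMP2 (100033948), gelatinase A, cuts denatured collagens and collagen IV of basement membranes and is made largely by stromal cells. Cyclic libraries of mares 1 to 4 had 538, 389, 403 and 391 CPM. Their pregnant libraries had 790, 650, 1390 and 562 CPM. Every pregnant library was above every cyclic one, and the pregnant library of mare 3 stood far above the rest. Groups that did not overlap, with the higher level in pregnancy, were found for 3 of the 9 genes, MMP2, TIMP1 and TIMP2. The share over all genes tested was 6.00% in that direction and 4.73% in the other, which 0 of the 9 genes showed. The ratio within mares was 1.47, 1.67, 3.45 and 1.44, and the log2 fold change was 0.90 ± 0.24 (adjusted p = 0.0629). Without mare 3 the log2 fold change was smaller, 0.60, but the adjusted p was 0.00884. MMP2 also passed in DESeq2 (adjusted p = 0.0224), limma-voom (0.0209) and with library totals (0.0395). Over all 12 alternatives the adjusted p ran from 0.00884 to 0.244.

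The pregnant library of mare 3 was the highest of the 4 pregnant libraries for 6 of the 9 genes, namely MMP2, MMP11, MMP14, MMP19, TIMP2 and TIMP3. Over all genes tested it was the highest for 23.5%. Its total was 16.7 M counts, close to that of the other deep libraries.

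MMP14 (100034170), a membrane-anchored metalloprotease that activates the MMP2 precursor and cuts fibrillar collagen, did not pass the test. It had 244, 260, 196 and 251 CPM in the cycle against 276, 239, 305 and 251 CPM in pregnancy. The groups overlapped, and the gene was higher in pregnancy in 2 of 4 mares. The log2 fold change was 0.17 ± 0.12 (adjusted p = 0.372). Mare 3 had the lowest cyclic and the highest pregnant value, and without that mare the log2 fold change was 0.01. The span of MMP14 overlaps that of SLC7A7, for which no counts were given, so its part in these reads cannot be judged.

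**Figure D2:**
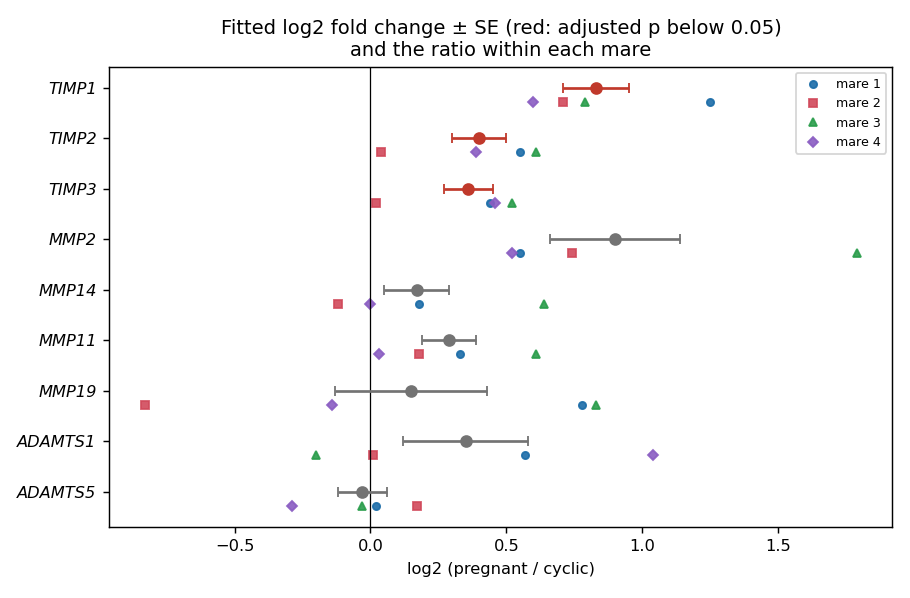
Fitted log2 fold change of pregnancy over the cycle with its standard error (upper symbol of each row, red where the adjusted p was below 0.05) and the log2 ratio of the 2 libraries of each mare (lower symbols). The 3 TIMPs are red; the 4 mares of MMP2 lie right of 0 with mare 3 far from the others, and those of MMP19 and ADAMTS5 lie on both sides.

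MMP2, MMP14 and TIMP2 form one activation complex, so their ratios within a library were compared. These are ratios of counts, whose size depends on transcript length, and they are described without a test. MMP2 over TIMP2 was 2.07, 1.19, 1.42 and 1.37 in the cycle and 2.08, 1.94, 3.21 and 1.50 in pregnancy. The ratio was level in mare 1, slightly higher in mare 4 and clearly higher in mares 2 and 3. MMP2 over MMP14 was 2.20, 1.49, 2.05 and 1.56 in the cycle and 2.86, 2.72, 4.55 and 2.24 in pregnancy, higher in each of the 4 mares. MMP14 over TIMP2 was 0.941, 0.797, 0.690 and 0.879 in the cycle and 0.727, 0.715, 0.704 and 0.669 in pregnancy, lower in 3 mares and level in mare 3. Outside this complex, MMP2 over TIMP1 was 54.2, 28.4, 35.3 and 36.7 in the cycle and 33.5, 29.0, 70.6 and 34.9 in pregnancy. It was lower in mare 1, higher in mare 3 and close to its cyclic value in mares 2 and 4, so this ratio had no common direction.

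MMP11 (100056568), stromelysin 3, is activated inside the cell by furin and is known from remodelling stroma. Its cyclic levels were 24.3, 20.7, 31.5 and 27.4 CPM, and its pregnant levels were 30.4, 23.5, 48.1 and 27.9 CPM. The groups overlapped although each mare was higher in pregnancy. The log2 fold change was 0.29 ± 0.10 (adjusted p = 0.0910), and MMP11 passed in 0 of 12 alternatives (adjusted p from 0.0528). Without mare 3 the log2 fold change was 0.17.

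MMP19 (100058984), a broad-acting metalloprotease of basement membrane proteins, was low and uneven. It had 54 to 116 counts per library, which gave 3.48, 6.28, 3.66 and 5.27 CPM in the cycle against 5.97, 3.55, 6.52 and 4.80 CPM in pregnancy. Mares 1 and 3 were higher in pregnancy and mares 2 and 4 lower. The log2 fold change was 0.15 ± 0.28 (adjusted p = 0.764) and its sign turned without mare 1 or mare 3. The remainder left by mare and state accounted for 92.6% of its sum of squares.

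MMP7 (100068985), matrilysin, a small metalloprotease of epithelial cells that lacks the haemopexin domain of its relatives, was hardly detected. It had 2 counts in the cyclic and 2 in the pregnant library of mare 4 and 0 in the other 6, so it was not tested. A count of 0 allows up to 3 counts, or 0.298 CPM in the shallowest library and 0.169 to 0.193 CPM in the rest (counting error only, since the reads carry no molecular identifiers). A difference between the states was not detectable at this depth.

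The pair of ADAMTS genes are neighbours in the RefSeq annotation. ADAMTS1 (791251) cuts versican and aggrecan and is known from ovulation and tissue remodelling. It had 120, 204, 193 and 132 CPM in the cycle against 179, 205, 168 and 272 CPM in pregnancy. It was higher in pregnancy in mares 1 and 4, the mares with the lowest cyclic values, was level in mare 2 and was lower in mare 3. The groups overlapped, and the log2 fold change was 0.35 ± 0.23 (adjusted p = 0.372). It was 0.12 without mare 4 and 0.53 without mare 3. ADAMTS5 (100066005), an aggrecanase that also cuts versican, had 37.3, 30.3, 29.5 and 26.1 CPM in the cycle against 37.7, 34.0, 28.8 and 21.4 CPM in pregnancy. Its log2 fold change was -0.03 ± 0.09 (adjusted p = 0.852). The sign has no weight, since it became 0.05 without mare 4. The span of ADAMTS5 overlaps a long noncoding RNA gene for which no counts were given.

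The mare terms of the same edgeR fit were also tested together. ADAMTS5 (adjusted p = 0.0343) and MMP11 (adjusted p = 0.0217) differed between mares, 2 of 9 genes, against 15.9% of all genes tested. For ADAMTS5 the order was mare 1, 2, 3 and 4 from highest to lowest in both states, and the mare accounted for 89.3% of its sum of squares against 0.454% for the state. For MMP11 the mare accounted for 72.9% and the state for 17.3%, with mare 3 highest and mare 2 lowest in both states. TIMP3 had an adjusted p of 0.0719 for mares. For the other 6 genes the adjusted p for mares was between 0.307 and 0.989. The count of 2 was 1 without mare 1, without mare 3, without mare 4 and in limma-voom.

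**Figure D3:**
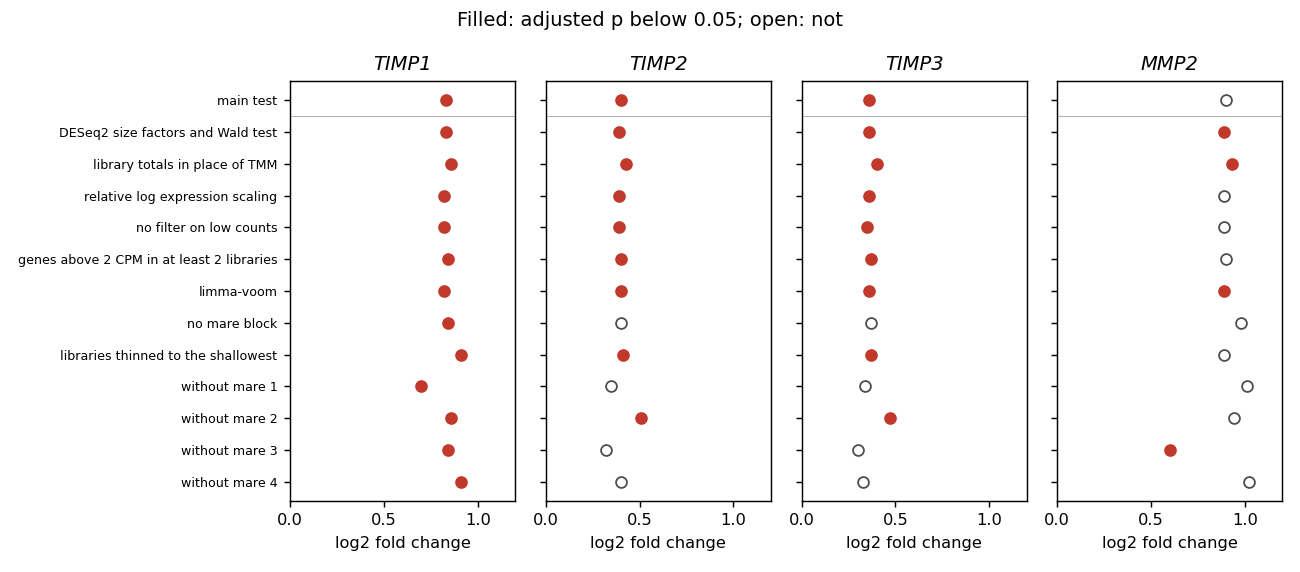
Log2 fold change of TIMP1, TIMP2, TIMP3 and MMP2 in the main test and in 12 alternative analyses (rows); filled points have an adjusted p below 0.05. TIMP1 is filled in every row, TIMP2 and TIMP3 in 8 of the 12 alternatives, and MMP2 in 4, with its smallest value, 0.60, without mare 3.

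Genes whose log2 CPM ran most closely with the 3 genes that rose were found by Pearson correlation over the 8 libraries, which share mares and a state difference. These were GALNT18 (r = 0.979) and IFI6 (0.977) for TIMP1, LTBP2 (0.967) and MAP3K12 (0.960) for TIMP2, and SLC27A6 (0.982) and FRMD8 (0.961) for TIMP3. They are the highest of a very large number of correlations over few libraries and are given as a description.

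Few of the other matrix metalloproteases were called. Of 18 listed, 16 were in the table and 7 were tested. MMP28 rose and MMP15 fell, 14.3% of the 7 each way, against 8.53% and 8.19% of all genes tested. A single call each way is too few to read as a pattern of the family. The median log2 fold change of the 7 was -0.09. MMP28, epilysin, an enzyme of epithelia, had 2.83, 1.76, 4.10 and 4.09 CPM in the cycle against 12.4, 3.67, 10.2 and 7.28 CPM in pregnancy. The pregnant library of mare 2 lay within the cyclic range, and the other pregnant libraries above it (log2 fold change 1.34 ± 0.22; adjusted p = 0.00366). MMP15, a membrane-anchored relative of MMP14, was 115 ± 43.5 CPM in the cycle against 84.5 ± 13.7 CPM in pregnancy (log2 fold change -0.38 ± 0.11; adjusted p = 0.0498). The MMP15 call was lost in 8 of 12 alternatives, among them those without mare 1 (adjusted p = 0.171), mare 2 (0.116) or mare 4 (0.115). MMP26, a matrilysin known from human endometrium, had 496, 606, 544 and 599 CPM in the cycle against 370, 738, 352 and 493 CPM in pregnancy. It was lower in pregnancy in 3 mares and higher in mare 2 (adjusted p = 0.244), and without mare 2 it had a log2 fold change of -0.45 (adjusted p = 0.0178). MMP24, another membrane-anchored enzyme, had 26.1 ± 6.36 and 24.8 ± 8.15 CPM (adjusted p = 0.525).

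Several well-known metalloproteases were near or below detection. The stromelysin MMP3 and MMP27 had 0 counts over the 8 libraries, and the collagenases MMP1, MMP8 and MMP13 had 29, 13 and 1. The macrophage elastase MMP12 had 3 counts. MMP9, gelatinase B, was low but passed the filter, with 318 counts over the 8 libraries. It had 2.44 ± 0.748 CPM in the cycle against 2.43 ± 2.12 CPM in pregnancy. Its log2 fold change was poorly determined, -0.21 ± 0.53 (adjusted p = 0.839).

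Of 17 other ADAMTS proteases, all in the table, 12 were tested, 2 rose and 2 fell, 16.7% of the 12 each way. Over all genes tested, 8.53% rose and 8.19% fell. With 2 calls each way, there are too few to read as a pattern of the family. ADAMTS9, which like ADAMTS1 and ADAMTS5 cuts versican, had 121, 133, 174 and 128 CPM in the cycle. In pregnancy it had 50.7, 41.3, 76.8 and 92.3 CPM. Every pregnant library was below every cyclic one (log2 fold change -1.14 ± 0.21; adjusted p = 0.0235). The ADAMTS9 call was lost without mare 1 (adjusted p = 0.103), without mare 3 (0.105), without the mare block (0.0538) and without the filter on low counts (0.0519). ADAMTS7 was 19.1 ± 9.13 and 13.8 ± 5.25 CPM (log2 fold change -0.44 ± 0.12; adjusted p = 0.0392). That call was lost in 6 of 12 alternatives, without mare 1 (adjusted p = 0.0923), mare 2 (0.118) or mare 4 (0.166) among them. ADAMTS10, a protein of the fibrillin microfibrils, rose 1.54-fold (adjusted p = 0.00457), and ADAMTS15, another protease that cuts versican, rose 1.35-fold (adjusted p = 0.00778). ADAMTS15 had an adjusted p of 0.0503 without mare 1. Without mare 1, 1 of the 12 was called. The procollagen proteases ADAMTS2 (8.84 ± 2.05 and 6.24 ± 1.13 CPM; adjusted p = 0.142) and ADAMTS14 (5.95 ± 1.57 and 5.23 ± 1.54 CPM; 0.508) did not pass, nor did ADAMTS12 (9.68 ± 1.47 and 12.4 ± 2.78 CPM; 0.0855). ADAMTS2 passed without mare 3 (adjusted p = 0.0308).

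**Figure D4:**
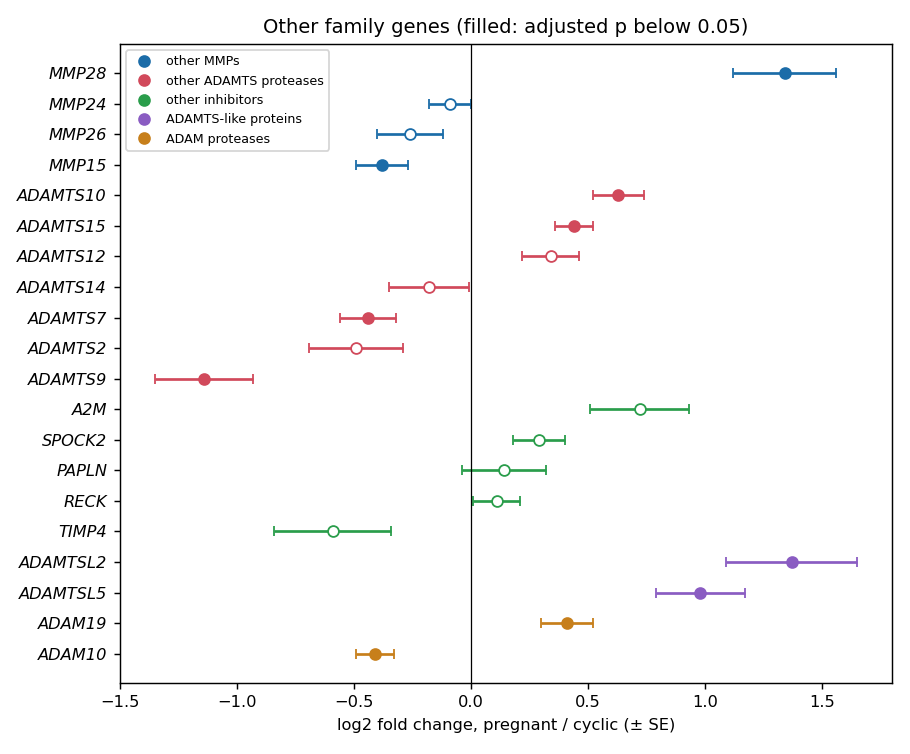
Log2 fold change with standard error for other genes of the protease and inhibitor families, in 5 groups by colour; filled points have an adjusted p below 0.05. MMP28 and ADAMTS10 lie right of 0 and ADAMTS9 and MMP15 left of it, while the 5 other inhibitors are open.

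None of the 5 other inhibitors tested passed in edgeR's test, and 2 had an unadjusted p under 0.05, A2M and SPOCK2. A2M, the protease trap alpha-2-macroglobulin, had 56.5, 64.3, 77.1 and 130 CPM in the cycle against 125, 94.0, 169 and 137 CPM in pregnancy. It was higher in 4 of 4 mares (log2 fold change 0.72 ± 0.21; adjusted p = 0.0886) and passed in DESeq2 (0.0392), in limma-voom (0.0271) and without mare 4 (0.00462). TIMP4 differed strongly between mares, with 2.19, 6.09, 19.1 and 50.1 CPM in the cycle against 2.09, 1.74, 16.8 and 34.7 CPM in pregnancy. Mares 3 and 4 were high and mares 1 and 2 low in both states (adjusted p for mares = 0.00328; for state, 0.174). SYN2, which overlaps TIMP4, had 7 to 129 counts and also differed between mares (adjusted p for mares = 3.36e-04), so the reads of this pair are uncertain. RECK, a membrane-anchored inhibitor of metalloproteases, had 34.6 ± 5.64 and 37.2 ± 4.32 CPM (adjusted p = 0.520). The proteoglycan SPOCK2 had 41.1 ± 15.4 and 49.6 ± 17.2 CPM (adjusted p = 0.103; 0.0256 without mare 3), and PAPLN, papilin, 70.4 ± 24.4 and 76.5 ± 20.7 CPM (0.651).

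Of 4 ADAMTS-like proteins tested, which lack the protease domain, ADAMTSL5 rose from 6.06 ± 2.42 to 11.7 ± 2.10 CPM and ADAMTSL2 from 0.691 ± 0.276 to 1.76 ± 0.257 CPM (adjusted p = 0.00810 and 0.0102). Of 9 ADAM proteases tested, ADAM10, a sheddase of Notch and cadherins, fell (150 ± 40.1 and 111 ± 18.7 CPM; adjusted p = 0.00936). ADAM19 rose 1.33-fold (adjusted p = 0.0358), a call that was lost when any one mare was left out (adjusted p from 0.0582 to 0.114). Of the 4 ADAMTS-like proteins 50% rose and 0% fell, and of the 9 ADAM proteases 11.1% went each way. Over all genes tested, 8.53% rose and 8.19% fell.

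Genes of activation, anchoring and clearance rose in 5 of 17 cases (29.4%) and fell in 1 (5.88%), against 8.53% and 8.19% of all genes tested. PLAT, tissue plasminogen activator, had 20.9, 17.8, 20.7 and 23.3 CPM in the cycle against 46.3, 41.1, 72.5 and 41.2 CPM in pregnancy, with no overlap (log2 fold change 1.25 ± 0.15; adjusted p = 0.00218). Plasmin, which PLAT produces, is a known activator of metalloprotease precursors. The plasmin precursor PLG had a log2 fold change of -0.37 ± 0.44 (adjusted p = 0.651) and did not pass. Nor did PLAU, another plasminogen activator (-0.15 ± 0.28; adjusted p = 0.777), or FURIN (-0.03 ± 0.12; 0.909). Activation of metalloproteases was not tested. CD44, a hyaluronan receptor that can hold metalloproteases at the cell surface, rose from 40.9 ± 8.83 to 75.4 ± 12.3 CPM (adjusted p = 0.0383). CAV1, caveolin, rose 1.53-fold (adjusted p = 0.0165), and LRP1, the endocytic receptor that clears proteases with their inhibitors, rose 1.32-fold (adjusted p = 0.0262). TSPAN12, a tetraspanin, fell from 81.8 ± 21.7 to 42.6 ± 5.76 CPM (adjusted p = 5.90e-04). Without mare 1, 1 gene of the list rose and 1 fell, and without mare 2, 2 rose and 1 fell. CD44 then had an adjusted p of 0.0809 and 0.174 and LRP1 of 0.112 and 0.0933. The adjusted p was 0.0816 for CAV1 without mare 1 and 0.0991 for LRP1 without mare 3. Of 6 other metallopeptidases tested, from the astacin and other families, 33.3% rose and 16.7% fell. The endothelin-converting enzyme ECE1 (1.47-fold, adjusted p = 0.00175) and the neprilysin MME (1.46-fold, 0.00778), which are not astacins or matrix proteases, rose. TLL1, a relative of the procollagen C-proteinase, fell from 44.2 ± 9.73 to 29.1 ± 9.01 CPM (adjusted p = 0.00220).

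Of 24 matrix proteins that these enzymes can cut, 8 rose (33.3%) and 1 fell (4.17%), with a median log2 fold change of 0.21. Over all genes tested, 8.53% rose and 8.19% fell. Among the risers were NID1, which links laminin to collagen IV (1.91-fold; adjusted p = 3.47e-04), elastin ELN (2.31-fold; 0.00159), tenascin TNC (0.00570) and decorin DCN (1.36-fold; 0.00761). TNC had only 2 to 12 counts in the cyclic and 26 to 95 counts in the pregnant libraries, so its fold is not given. The 1 gene that fell, named after its value was seen, was VCAN, versican, the shared substrate of ADAMTS1, ADAMTS5, ADAMTS9 and ADAMTS15. It had 96.6, 119, 120 and 126 CPM in the cycle against 65.4, 56.8, 44.7 and 80.7 CPM in pregnancy, with no overlap (log2 fold change -0.92 ± 0.15; adjusted p = 0.00900; 0.0512 without mare 2). The fibrillar collagens COL1A1 (1480 and 1280 CPM; adjusted p = 0.658) and COL1A2 (1560 and 1350 CPM; 0.486) did not pass. Without mare 1 or without mare 3, 5 of the 24 rose and 1 fell.

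Of 21 cytokine and transcriptional regulators of metalloprotease genes, 4 rose (19%) and 1 fell (4.76%), against 8.53% and 8.19% of all genes tested. TGFB1, known to raise TIMP1 expression, went from 85.2 ± 16.4 to 119 ± 30.4 CPM (log2 fold change 0.47 ± 0.09, adjusted p = 0.00764). Its receptor TGFBR2 rose 1.39-fold (adjusted p = 0.00457). TGFB2 (log2 fold change 0.02, adjusted p = 0.905), TGFB3 (-0.17, 0.360) and the receptor TGFBR1 (-0.34, 0.114) did not pass, and TGFBR1 was higher in pregnancy in 0 of 4 mares. A link between TGFB1 and TIMP1 was not tested. The AP-1 subunit FOSL2 (1.38-fold, adjusted p = 0.00679) and the interleukin 1 receptor IL1R1 (1.42-fold, 0.0124) also rose. Other AP-1 subunits did not pass and were poorly determined. They were FOS (log2 fold change 0.27 ± 1.36, adjusted p = 0.924), FOSB (-0.03 ± 2.26, 0.995), JUN (-0.16 ± 0.62, 0.904) and JUNB (0.09 ± 1.01, 0.969). FOSL2 had an adjusted p of 0.0519 without mare 1, and IL1R1 of 0.0562 without mare 2 and 0.0574 without mare 3. ESR1, oestrogen receptor alpha, fell (log2 fold change -0.65 ± 0.11; adjusted p = 0.00391).

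RNA levels of some cell type markers differed between the states as well. Over all genes tested, 8.53% rose and 8.19% fell. The share that rose was close to this for macrophage and dendritic cell markers (10%) and for ciliated cell markers (11.1%). In whole tissue, more cells of a type and more RNA per cell cannot be told apart. Epithelial and stromal markers were present, with EPCAM at means of 538 and 508 CPM and VIM at 404 and 593 CPM in the cyclic and pregnant groups. Each marker that matched a Gene ID had counts in at least 1 library. Of 13 endothelial markers 10 rose, and their summed level was 691 to 1360 CPM in the cycle and 1050 to 1560 CPM in pregnancy. Of 11 smooth muscle and pericyte markers 7 rose, with sums of 447 to 727 and 753 to 1220 CPM. Of 11 stromal markers 6 rose and 1 fell, and their sums, mostly COL1A1 and COL1A2, were 3210 to 4860 and 3980 to 4420 CPM. Of 13 epithelial markers 1 rose and 4 fell (sums of 2180 to 2590 and 1950 to 2300 CPM; without mare 1, 1 rose and 2 fell; without mare 2, 1 and 2; without mare 4, 0 and 2). With library totals in place of TMM 1 epithelial marker rose and 2 fell, and without the mare block 0 changed. Of 12 T and NK cell markers 4 rose (sums of 77.2 to 119 and 96.2 to 140 CPM; 2 without mare 1, 1 without mare 2, 2 without mare 4). Of 10 macrophage and dendritic cell markers 1 rose (2 without mare 3), of 5 B and plasma cell markers 3 rose (1 with genes above 2 CPM in at least 2 libraries, and 1 with libraries thinned to the shallowest), of 9 ciliated cell markers 1 rose (0 without mare 1) and of 5 neutrophil and mast cell markers 0 changed (0 at an unadjusted p under 0.05, and 0 in DESeq2 or limma-voom).

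The part of these marker changes in the rises of the TIMPs was not tested. For MMP2 the stromal sum can be set beside it mare by mare. The stromal sum was 1.31, 0.839, 1.24 and 0.826 times its cyclic level in mares 1 to 4, but COL1A1 and COL1A2 made up 62.6% to 78.6% of it in each library, and each of these collagens was higher in pregnancy in 2 of 4 mares. Of the 11 stromal markers 8 were higher in 4 of 4 mares, among them DCN, DPT and VIM, against 19.2% of all genes tested. FAP was the 1 stromal marker lower in all 4 mares, with means of 156 and 116 CPM in the cyclic and pregnant groups (adjusted p = 0.00458). Without the collagens, a sum added after the values were seen, the stromal markers were 1.58, 1.36, 1.45 and 1.39 times their cyclic level. The ratios of MMP2 were 1.47, 1.67, 3.45 and 1.44, so MMP2 and this sum were both higher in every mare. MMP2 was far above the sum in mare 3 alone. COL1A1 and COL1A2 had log2 fold changes of -0.15 and -0.17, so leaving them out raised the sum. Its direction is therefore no separate evidence. VIM (404 and 593 CPM) and DPT (178 and 366 CPM) were the most abundant genes left in it. The smooth muscle and pericyte sum was 2.19, 1.69, 2.10 and 1.26 times its cyclic level, and the endothelial sum 1.89, 1.51, 1.67 and 1.11 times. The endothelial receptor ROBO4, which differed between mares (adjusted p for mares = 9.31e-05) but was not called between states (361 and 369 CPM; adjusted p = 0.438), made up 57.8% of the endothelial sum in the cyclic and 47.4% in the pregnant library of mare 4. Without ROBO4, also left out after its values were seen, the endothelial ratios were 2.13, 1.76, 1.85 and 1.38. TIMP1 had its largest ratio in mare 1 and its smallest in mare 4, as did the smooth muscle and pericyte sum and the endothelial sum with or without ROBO4. TIMP2 and TIMP3 had another order, with their largest ratios in mare 3 (1.52 and 1.43) and their smallest in mare 2 (1.03 and 1.02). These orders rest on 4 mares, and a link with the marker sums was not tested.

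**Figure D5:**
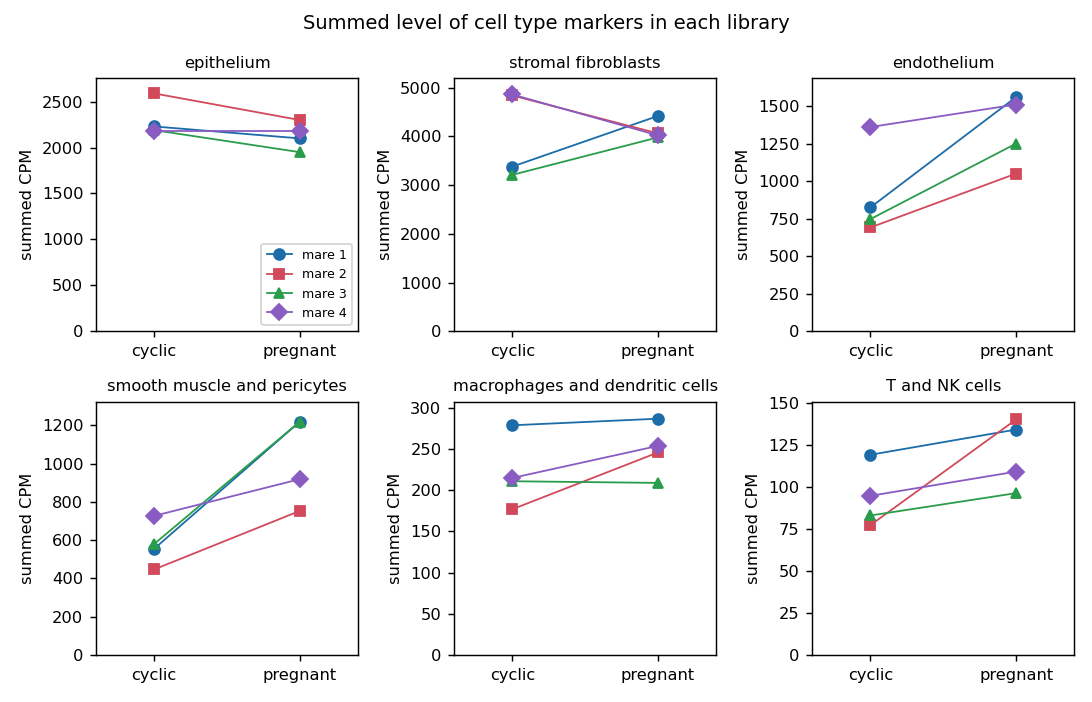
Summed TMM-scaled CPM of 6 sets of cell type markers in each library, with the 2 biopsies of a mare joined by a line, on linear axes from 0. The endothelial and the smooth muscle and pericyte sums were higher in pregnancy in each of the 4 mares. The stromal sum, 62.6% to 78.6% of it COL1A1 and COL1A2, was higher in mares 1 and 3 and lower in mares 2 and 4. Without these collagens, left out after the values were seen, the stromal sum was higher in all 4 mares.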

How the data were processed

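The main table, deposited by the authors, holds raw counts of reads per NCBI Gene ID for 8 libraries. Per the submitters' processing notes, Trimmomatic 0.32.2 and HISAT2 2.0.3 were used; for the counting tool, genome build and annotation, nothing is given in the sources used here. A second table of scaled signal values, deposited by the authors for 14037 genes, equalled TMM-scaled CPM of these counts (100% of values within a relative tolerance of 1e-06). It served only for this check. Symbols came from RefSeq (telomere-to-telomere assembly of the horse), which matched 21420 IDs (85.9%).

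The analysis used edgeR 4.0.16 under R 4.3.3 (filterByExpr, minimum count 10; TMM; robust quasi-likelihood F-test; model of mare and state; Benjamini-Hochberg adjustment). A standard error is the log2 fold change divided by the square root of F. The mare is a block because the design text gives both biopsies of each mare. Same-mare libraries also deviated together from their group means (correlations 0.54, 0.38, 0.48 and 0.47), with at most -0.02 between mares. Taking deviations from the group mean pushes the values between mares down where same-mare values are positive, so they add no separate evidence. Sums of squares and correlations used log2 CPM with a prior count of 2. In none of the 28 pairs of libraries did the counts agree within sampling noise (chi-square per degree of freedom at least 26.3). On simulated data for pregnancy against the cycle (15342 genes), the test recovered 59.7% of genes changed 1.5-fold and 79.1% of those changed 2-fold, and 6.51% of its calls were false. Only 67 genes were changed at each of these folds, while 2565 were called in the data. The simulated spread followed the fitted trend and not each gene's own spread. These rates may therefore differ from those in the data.

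Alternatives were DESeq2 1.42.0, limma-voom (limma 3.58.1), other scalings and filters, thinning, no block and leaving out each mare. Members and lists were chosen with earlier results of these data known. All members are named; from each other list up to 5 called genes with the smallest p, or the 2 most abundant where none was called, and protease and inhibitor genes with a mean of at least 5 CPM. MMP3, MMP27 and other MMPs named with few counts, and MMP9, COL1A1 and COL1A2, were added after their values were seen. So were PLG, PLAU, FURIN, TGFB2, TGFB3, TGFBR1, FOS, FOSB, JUN, JUNB and FAP. Of the genes this rule picks, 1 is not reported here.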

Additional observations from a re-analysis of the deposited data

Results flagged for a closer look

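In groups of 4 libraries, a library was singled out where its gap to the nearest of the others took up nearly the whole range of the group. This was examined in 96 groups, of which 4 were singled out; chance does so in about 1 in 20. MMP2 in the cyclic library of mare 1 had 538 CPM, against 389 to 403 CPM in the other cyclic libraries. ADAMTSL5 in the cyclic library of mare 3 had 9.68 CPM, against 4.59 to 5.02 CPM. PLAT in the pregnant library of mare 3 had 72.5 CPM, against 41.1 to 46.3 CPM. The total count of the pregnant library of mare 1 was 9.81 M, against 16.4 to 16.7 M in the other pregnant libraries. The pregnant library of mare 3, at 1390 CPM of MMP2, was not singled out by this measure, since the other 3 pregnant libraries were themselves spread from 562 to 790 CPM.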

How the results depend on the processing

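The count of all genes called was 2565 (1309 higher, 1256 lower). Without the mare as replicate block it was 389 (268 higher, 121 lower), and leaving out 1 mare gave 1266 (without mare 1) to 2057. With library totals in place of TMM the split was 1416 higher and 864 lower. Of the 9 genes tested here, 3 were called, 1 without the replicate block and 1 to 3 when 1 mare was left out. Genes that differed between mares numbered 2, with 1 in limma-voom and 1 to 2 when 1 mare was left out. The log2 fold change turned sign for ADAMTS5 (-0.11 to 0.05 when 1 mare was left out, above 0 without mare 4, and 0.00 after rounding with library totals), for MMP19 (-0.09 to 0.47, below 0 without mare 1 or mare 3) and for PAPLN (-0.04 to 0.34, below 0 without mare 4). Without the block, calls named in the text were also lost for MMP28 (adjusted p = 0.0931), MMP15, ADAMTS7, ADAMTS10, ADAMTS15, ADAMTSL2, ADAMTSL5, ADAM10, ADAM19, CAV1, LRP1, ECE1, MME, TLL1, ELN, DCN, TGFB1, IL1R1 and ESR1 (0.0642 to 0.578). Of the marker lists, those of the stroma then had 2 genes that rose, B and plasma cells 1, T and NK cells 0 and the epithelium 0. The cause of these changes was not tested. Fewer mares leave fewer degrees of freedom. Depth limits MMP7 and the other genes with few counts.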
